A study of Mus musculus with 46 samples.

Results

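In mouse embryonic fibroblasts (MEFs) before reprogramming, 20229 H3.3 peaks lay between genes and had no counterpart in either pluripotent cell population. They were chosen from the H3.3 peak list of the day 0 fibroblasts (D0) by 2 conditions. The midpoint was more than 1 kb outside every protein-coding gene, and no H3.3 peak of induced pluripotent stem cells (iPSCs) or of the mouse embryonic stem cell line ES-D3 (ESD3) shared a single base pair with them. The 20229 regions were 22.6% of the 89614 D0 peaks used and 73.8% of the 27420 intergenic ones, and they covered 21.4 of the 130.1 Mb under D0 peaks. The other 7191 intergenic D0 peaks, kept in iPSCs or ESD3, and the 32642 intronic D0 peaks absent from both (and over 1 kb from a transcription start site) served for comparison. Absent means only that no peak was called there.

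H3.3 was mapped by ChIP-Seq, which sequences the DNA bound to a histone pulled down by an antibody. D0 were fibroblasts from embryos whose Oct4 gene carries a GFP cassette, and D3 were unsorted cells on day 3 after retroviral Oct4, Sox2, Klf4 and c-Myc (OSKM). Cells were sorted on days 6 and 9 for Thy-1, a fibroblast surface protein, and on days 12 and 16 for SSEA-1, a surface antigen of mouse pluripotent cells. D6T-, D9T-, D12S+ and D16S+ cells were taken as on the successful route, and D6T+, D9T+, D12S- and D16S- cells as unsuccessful. The iPSCs had been through the whole conversion, whereas ESD3 cells received no factors. In a further experiment fibroblasts (MEF, day 0) were induced by Scl, Lmo2, Runx1 and Bmi1 (SLBR) towards blood progenitors, with unsorted cells on day 4 (D4) and end-point cells sorted by the receptor cKit (cKit+ and cKit-). Per the study's methods, fibroblasts freed of cells with blood surface markers received these factors and grew on inactivated OP9 stromal cells with cytokines. Any share of OP9 chromatin in these libraries was not tested. Every group was 1 library, so replicate error is unknown throughout. The sorted fractions are mixed populations, so fewer cells carrying H3.3 at a region and less H3.3 in each cell cannot be told apart.

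H3.3 is the variant of histone H3 that is laid down outside DNA replication, by the HIRA complex at active genes and enhancers and by the DAXX and ATRX complex at silent repeats. Away from genes it marks sites of fast nucleosome exchange, many of which are enhancers and insulators. Trimethylation of H3 at lysine 4 (H3K4me3) is strongest at active promoters, and at lysine 36 (H3K36me3) it follows transcription through gene bodies. In fibroblasts many distal enhancers are bound by AP-1, a dimer of Fos and Jun family proteins that recognises a palindrome of 7 bases.

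The H3.3 libraries held 18.8 to 91.8 M tags and 25637 to 108179 peaks, and the D0 library held 27.0 M tags. The score of a peak is its number of tags scaled to 10 M per library. The regions were short and modest in score, which is a description of the choice and not a finding. Their median length was 693 bp, against 1245 bp for the kept intergenic peaks and 664 bp for the intronic absent ones, and 36.7% had the shortest length of 500 bp. Their median score was 9.64, against 17.6 and 9.27, and their median fold over input was 4.03, against 4.18 and 4.08. Per kb the score hardly differed (medians 13.6, 14.0 and 13.4 tags), so that scores mostly followed length, apart from a few dense regions described further on. Just inside the rule stood 2018 regions (9.98%) with an iPSCs or ESD3 peak 1 kb or less away, whose median score was 8.90. Just outside it were 296 intergenic peaks overlapped over less than 0.1 of their length, with a median score of 18.5. For 57.7% of the regions the nearest iPSCs or ESD3 peak was over 10 kb away. The name fibroblast rests on the D0 list. Of the other fibroblast library, MEF, 29.7% of the regions were overlapped, so most were called in only 1 of the 2 fibroblast libraries.

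Sequences at the midpoints of 7 regions are shown because the AP-1 motif TGANTCA was, of the motifs searched, the one whose frequency differed most between the regions and the DNA beside them. Each is 300 bp of the NCBIM37 genome (mm9), plus strand, 5′ to 3′, with the motif in capitals. The pair near Itpripl2 and Amotl2 come from the regions named by score or retention, of which 2 of 19 held the motif in this window. The others, added after the values were seen, are for 5 gene lists the highest-scoring named region with the motif. Genes are those of the nearest transcription start site (TSS), which need not be the gene a region acts on.
Itpripl2 region, chr7:125623702-125624001: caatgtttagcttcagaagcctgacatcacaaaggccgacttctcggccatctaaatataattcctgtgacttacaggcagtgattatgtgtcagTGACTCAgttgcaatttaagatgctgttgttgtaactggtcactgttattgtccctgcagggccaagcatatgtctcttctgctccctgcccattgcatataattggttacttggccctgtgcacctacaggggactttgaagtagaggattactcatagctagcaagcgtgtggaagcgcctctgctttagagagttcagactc
Amotl2 region, chr9:102663602-102663901: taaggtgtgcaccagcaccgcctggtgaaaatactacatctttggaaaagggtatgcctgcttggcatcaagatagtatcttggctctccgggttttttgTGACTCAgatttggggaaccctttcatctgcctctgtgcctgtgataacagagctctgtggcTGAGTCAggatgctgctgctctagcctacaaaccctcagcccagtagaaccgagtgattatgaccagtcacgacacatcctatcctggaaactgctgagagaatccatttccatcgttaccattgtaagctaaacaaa
Jun region, chr4:94764917-94765216: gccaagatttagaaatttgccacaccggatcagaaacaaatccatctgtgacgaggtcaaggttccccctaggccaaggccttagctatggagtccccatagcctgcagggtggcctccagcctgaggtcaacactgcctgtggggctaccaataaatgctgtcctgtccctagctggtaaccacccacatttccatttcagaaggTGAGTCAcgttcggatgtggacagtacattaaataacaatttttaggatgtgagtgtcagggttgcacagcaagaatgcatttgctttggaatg
Grem1 region, chr2:113605259-113605558: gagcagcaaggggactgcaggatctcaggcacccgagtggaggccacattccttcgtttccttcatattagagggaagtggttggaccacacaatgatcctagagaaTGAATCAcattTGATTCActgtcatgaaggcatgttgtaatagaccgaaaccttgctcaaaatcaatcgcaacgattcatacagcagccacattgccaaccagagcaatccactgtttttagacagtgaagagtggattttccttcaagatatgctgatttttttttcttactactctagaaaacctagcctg
Myc region, chr15:61997436-61997735: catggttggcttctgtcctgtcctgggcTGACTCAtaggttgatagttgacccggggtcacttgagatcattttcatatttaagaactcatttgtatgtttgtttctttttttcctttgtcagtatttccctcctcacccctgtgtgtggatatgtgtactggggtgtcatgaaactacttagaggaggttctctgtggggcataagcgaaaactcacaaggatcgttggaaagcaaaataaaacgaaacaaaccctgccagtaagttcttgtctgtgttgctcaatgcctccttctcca
Krt8 region, chr15:101841322-101841621: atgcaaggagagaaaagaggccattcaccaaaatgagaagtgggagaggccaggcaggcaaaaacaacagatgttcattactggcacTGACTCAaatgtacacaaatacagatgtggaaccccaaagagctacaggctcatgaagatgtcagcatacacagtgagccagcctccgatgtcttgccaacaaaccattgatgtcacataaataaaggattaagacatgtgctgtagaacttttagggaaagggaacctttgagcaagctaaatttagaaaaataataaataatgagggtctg
Kit region, chr5:75897317-75897616: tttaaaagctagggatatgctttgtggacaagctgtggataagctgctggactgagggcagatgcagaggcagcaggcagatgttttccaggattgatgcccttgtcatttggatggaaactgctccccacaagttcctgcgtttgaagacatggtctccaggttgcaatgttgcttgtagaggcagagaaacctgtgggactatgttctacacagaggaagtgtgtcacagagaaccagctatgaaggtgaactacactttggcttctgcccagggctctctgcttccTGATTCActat

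On the successful route the regions were overlapped by fewer peaks at each later stage. Neither D3 nor any sorted fraction entered the rule, but it required a peak in D0 and none in iPSCs, the ends of this route. A fall between them is therefore partly built in, and so is the contrast with the kept peaks. D3 peaks overlapped 26.2% of them (95% Wilson interval 25.6 to 26.8), D6T- peaks 21.2%, D9T- peaks 15.8%, D12S+ peaks 5.37% (5.07 to 5.69) and D16S+ peaks 2.06% (1.88 to 2.27). Over all D0 peaks the same shares were 41.3%, 43.4%, 34.5%, 21.4% and 13.4%. The kept intergenic peaks had 58.2% in D3 and 36.5% in D16S+. The intronic absent peaks had 32.8% (D3), 32.2% (D6T-), 21.0% (D9T-), 7.25% and 2.71% at these stages, above the intergenic regions in each library. Of the 13 libraries the widest gap was in D6T-, at -11.0 percentage points (95% Newcombe interval -11.8 to -10.3). These intervals cover counting error only, and they are too narrow where regions lie side by side. The D12S+ and D16S+ lists were also short, at 45922 and 34062 peaks against 89727 in D0. The part of list size in the fall was not tested.

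**Figure D1:**
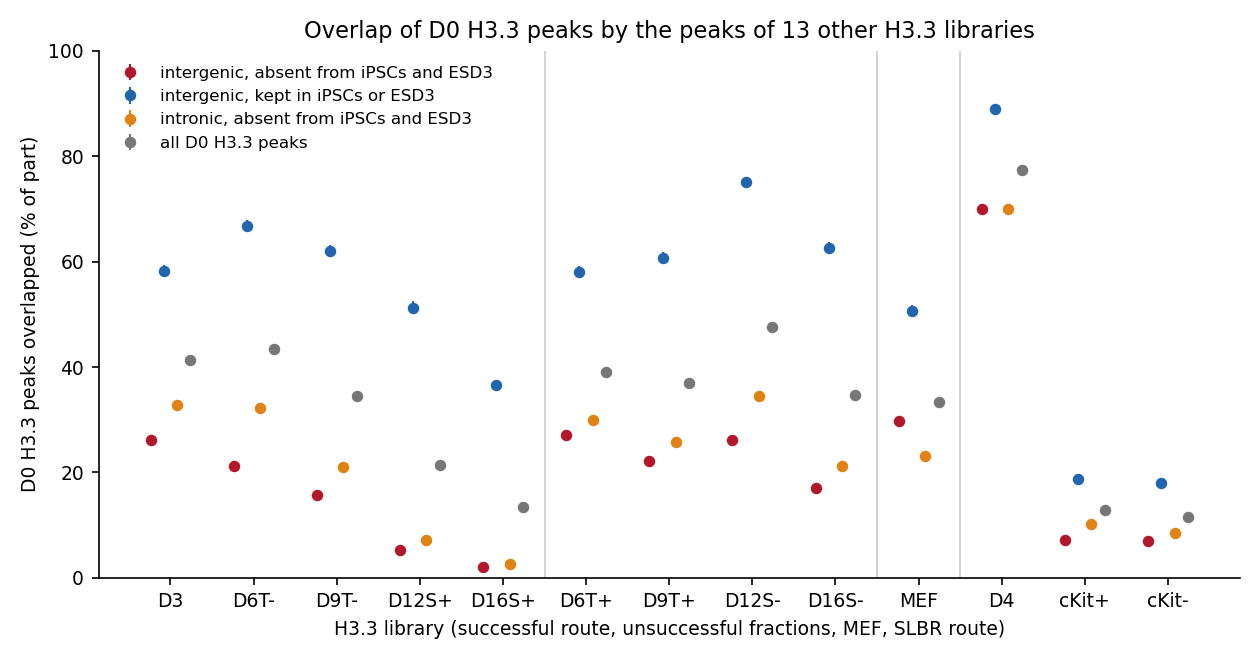
Share of D0 H3.3 peaks overlapped by the peaks of 13 other H3.3 libraries (y axis, percent of each part, bars are 95% Wilson intervals, mostly smaller than the points). The 20229 intergenic regions absent from iPSCs and ESD3 (red) sit at 26.2% in D3 and 2.06% in D16S+, and clearly above the intronic absent peaks (orange) in MEF alone, with nearly equal shares in D4.

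For most regions no peak was seen after D0 along the successful route. The last library of the successful route with a peak was D0 for 60.9% of the regions, D3 for 12.2%, D6T- for 1780 regions, D9T- for 11.4%, D12S+ for 4.60% and D16S+ for 2.06%. In all, 84.4% (83.9 to 84.9) had no peak again once 1 stage had lacked it, against 77.3% of the intronic absent and 62.3% of the kept intergenic peaks. Last seen in D0 were 48.4% of the intronic absent and 14.4% of the kept intergenic peaks. Peaks last seen in D0 meet this criterion automatically, so its contrast is in part set by the D0-only shares. Of the 9 reprogramming libraries between D0 and iPSCs, none had a peak at 45.8% of the regions (34.9% of the intronic absent and 8.33% of the kept peaks), 1 had a peak at 18.6%, and all 9 at 60 regions (0.297%). The regions never seen again had a median D0 score of 7.79, and those seen in 8 of 9 libraries one of 28.4. Where a peak was still called, it mostly covered only a part of the region and held fewer tags over it than in D0. The median of the library's tags per kb of the whole region over those in D0 was 0.446 for the 5298 regions with a D3 peak, 0.627 for D6T-, 0.541 for D9T-, 0.386 for D12S+ and 0.343 for the 417 regions with a D16S+ peak. The median share of the region's length covered was 48.3% in D3, 65.4% in D6T- and 31.7% in D16S+, close to these ratios, and in D6T- 20.6% of the regions lay above their D0 level.

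The unsuccessful fractions kept more of the regions than the successful fraction of the same day, on each of the 4 days. On day 6 D6T+ peaks overlapped 27.1% and D6T- peaks 21.2%. On day 9 the shares were 22.1% in D9T+ and 15.8% in D9T-. On day 12 they were 26.1% in D12S- and 5.37% in D12S+, and on day 16 they were 17.1% in D16S- and 2.06% in D16S+. Over all D0 peaks the unsuccessful fractions had 39.1%, 36.9%, 47.6% and 34.6%. The mean difference was 12.0 points (5.91 to 20.8 over the days), near the 11.4 points over all D0 peaks and the 12.1 points of the intronic absent ones, and 2 of the 16 sign assignments of an exact permutation test over days lay as far from 0, the fewest that 4 days allow, so this design cannot pass a threshold of 0.05. On day 6 the difference was -2.27 points for the intronic absent peaks and -8.76 points for the kept intergenic ones, which on day 9 stood at 4.71 and -1.18 points. These early signs hung on the peak lists. The D6T- list held 82764 peaks and the D6T+ list 60705. When every list was cut to its 25637 highest scores, all parts were chosen anew, leaving 5366 regions. The day 6 differences were then 19.6, 13.5 and 3.07 points for the regions, the intronic absent and the kept peaks. With an overlap of at least 0.5 of the D0 peak required throughout, 22960 regions were chosen, some of them touched by iPSCs or ESD3 peaks. Their day 6 difference was -0.675 points. Lists were unequal later too, with 45922 peaks in D12S+ and 87536 in D12S-, and 34062 in D16S+ and 65454 in D16S-. Of the tags, 6.93% and 22.0% lay in peaks on day 12, and 4.88% and 12.2% on day 16. With the lists cut to equal numbers, the differences of the 5366 regions then chosen were 16.2 points on day 12 and 19.05 on day 16. Over all D0 peaks they were then 18.9 and 20.8 points. The part of enrichment was not tested.

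**Figure D2:**
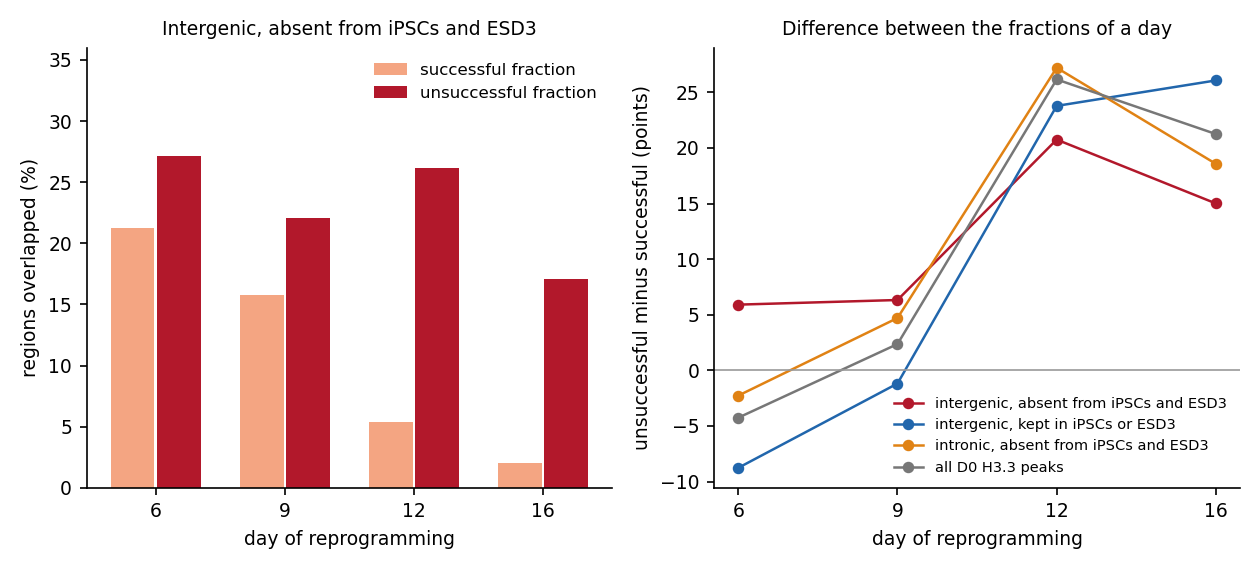
Left, share of the 20229 regions overlapped by H3.3 peaks of the successful and the unsuccessful fraction of each day. Right, unsuccessful minus successful share in percentage points for the regions and 3 comparisons, 1 library per point. The regions (red) run from 5.91 points on day 6 to 20.8 on day 12, and are the only line above 0 on day 6.

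On day 12 most regions with a D12S+ peak also had a D12S- peak, as among all D0 peaks. There, 900 regions had a peak in both fractions, 187 in D12S+ alone and 4385 in D12S- alone, and over all D0 peaks 17384 had both and 1811 D12S+ alone. On day 16 the regions had 247 in both, 170 in D16S+ alone and 3207 in D16S- alone. On day 6 the counts were 2496, 1797 in D6T- alone and 2993 in D6T+ alone. There were 1395 regions (6.90%) with a peak in all 4 unsuccessful fractions and 123 (0.608%) with one in all 4 successful ones, against 8.48% and 0.622% of the intronic absent peaks. A peak in every unsuccessful and no successful fraction was at 143 regions, whereas 0 of 20229 showed the opposite pattern (upper 95% limit 0.0190%). The intronic absent peaks had 183 against 0 of 32642, and the kept peaks 25 against 1 of 7191, so this asymmetry was not particular to the regions. Of the 143, 75.5% also had a MEF peak, against 29.7% of all regions, 56.8% of the 183 and 64% of the 25. The 143 had a median D0 score of 33.2. Of all regions with a score of 22.6 or more, MEF peaks overlapped 66.0%. A D16S- peak was at 49.1% of the 5285 regions with a D12S- peak and at 5.76% of the rest.

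In the SLBR experiment, MEF peaks overlapped 29.7% of the regions (29.1 to 30.3) and D4 peaks 69.9% (69.3 to 70.6). Over all D0 peaks the shares were 33.3% and 77.4%. At the end point 7.24% were overlapped in cKit+ and 7.01% in cKit- cells, against 12.9% and 11.5% over all D0 peaks. In MEF the regions stood above the intronic absent peaks, by 6.65 points (5.88 to 7.43), the reverse of all reprogramming libraries, and in D4 the difference was 0.018 points (-0.79 to 0.82). A region with a MEF peak also had one more often elsewhere. With and without a MEF peak, D3 peaks overlapped 42.5% and 19.3%, D6T+ peaks 45.3% and 19.5%, D16S- peaks 28.2% and 12.4%, D4 peaks 91.8% and 60.7%, and D16S+ peaks 2.70% and 1.79%. Enrichment in the MEF and D4 lists was low. Only 4.03% of the MEF peaks and 9.60% of the D4 peaks reached a fold of 4 over input, against 55.1% in D0. With that fold required in every H3.3 list, MEF peaks overlapped 0.812% of the 12692 regions then chosen and 0.909% of the intronic absent peaks, so the order turned.

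Retention went with the D0 score, and the contrasts with the intronic peaks were also present among peaks of like score. All D0 peaks were split at their score quartiles (7.05, 10.8 and 22.6) into 4 classes. From the lowest to the highest class, the share of the regions overlapped in D3 was 11.6%, 17.0%, 29.4% and 58.0%, and in MEF 11.8%, 18.6%, 35.2% and 66.0%. In D16S- it was 8.13%, 11.6%, 18.8% and 36.6%. In each class the regions were below the intronic absent peaks in D3 (by 5.36 to 9.26 points), D6T- (by 8.89 to 14.0) and D12S- (by 6.27 to 10.2), and above them in MEF (by 3.60 to 8.26), each with an interval clear of 0.

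**Figure D3:**
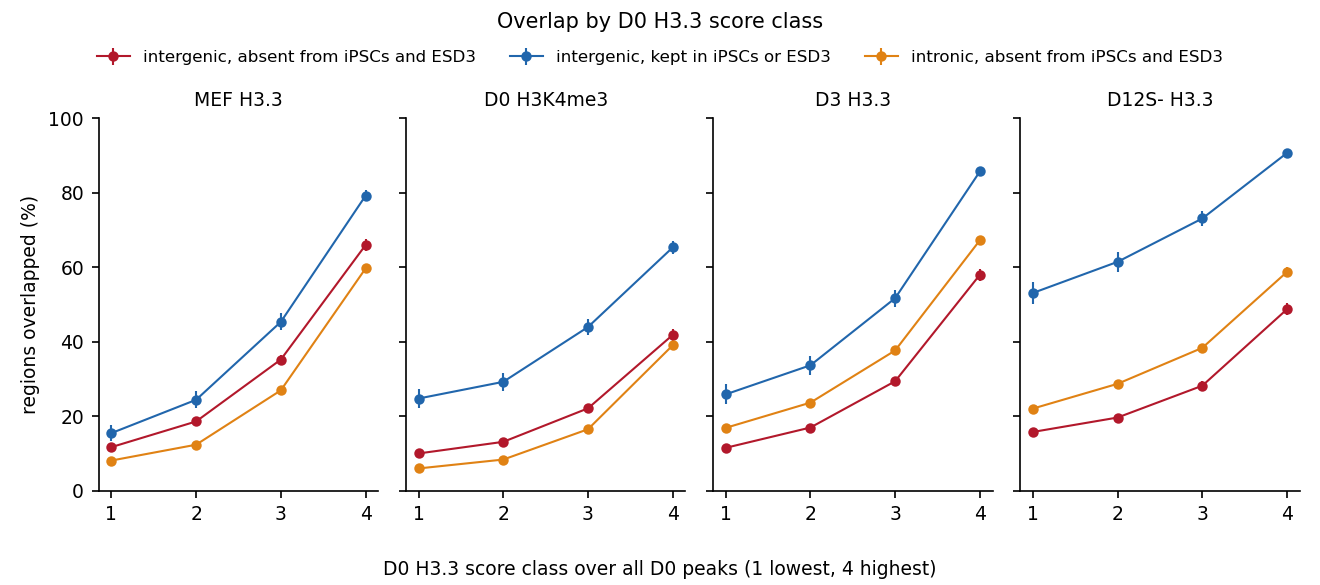
Share of regions overlapped (y axis, percent, bars are 95% Wilson intervals) by MEF H3.3, D0 H3K4me3, D3 H3.3 and D12S- H3.3 peaks in 4 classes of the D0 score. The regions (red) lie between the other parts for MEF and D0 H3K4me3, and lowest in every class for D3 and D12S-.

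H3K4me3, which the rule did not use, was present at a minority of the regions and was rarer in every later library, without a steady fall. D0 H3K4me3 peaks overlapped 4016 of them, 19.9% (19.3 to 20.4), against 28.2% of all D0 peaks. This was 27.2 points below the kept intergenic peaks (47.0%) and 4.75 points above the intronic absent ones (15.1%, interval of the difference 4.08 to 5.43), and the latter sign held in each score class (2.77 to 5.60 points). H3K4me3 of D3 was at 7.22%, that of D6T- at 9.28%, of D9T- at 6.71%, of D12S+ at 2.78% and of iPSCs at 2.50%, and that of D16S+ at 242 regions (1.2%). Over all D0 peaks it was 18.6% (D3), 22.2% (D6T-), 19.2% (D9T-), 14.9% (D12S+), 16.5% (iPSCs) and 8.47% (D16S+). The D16S+ list was the shortest for this mark, at 19633 peaks. Of the 4016 marked regions, 30.6% had an H3K4me3 peak in D3, 34.0% in D6T-, 11.9% in D12S+ and 9.99% in iPSCs, where 401 kept the mark without an H3.3 peak. The D0 H3K4me3 peaks concerned were small. The 4034 that touched a region had a median length of 778 bp and a median score of 11.8, against 1571 bp and 34.1 for the 19970 that touched other D0 H3.3 peaks only.

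Marked regions were also the stronger and more lasting ones. Their median D0 H3.3 score was 16.9, against 8.90 without H3K4me3, and their median length 1217.5 bp against 644 bp. A longer region is more easily touched under the 1 bp rule, and the part of length and score was not tested. MEF peaks overlapped 53.4% of them (51.9 to 55.0) and 23.8% of the rest, D3 peaks 39.6% and 22.9%, and D12S+ peaks 10.2% and 4.17%. Their median distance to a TSS hardly differed, at 45.4 and 45.2 kb. H3K36me3 was rarer, with a D0 peak at 4.37% of the regions, against 29.1% of all D0 peaks and 36.1% of the intronic absent ones. In iPSCs it was at 0.480%, against 8.74% of all D0 peaks. Regions 5 to 20 kb from a TSS had a D0 H3K36me3 peak in 7.65% of cases and those over 100 kb away in 1.55%.

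The regions lay far from genes. The median distance from midpoint to nearest protein-coding TSS was 45.2 kb (quartiles 16.2 and 120.7 kb), against 13.4 kb for the kept intergenic peaks and 22.3 kb for the intronic absent peaks, which by their position inside genes cannot be compared directly. Within 5 kb of a TSS lay 8.41% of the regions and 28.0% of the kept peaks, and 100 to 500 kb away lay 26.0% and 6.02%. Upstream of the nearest TSS stood 61.4% of the regions (60.8 to 62.1) and 68.7% of the kept intergenic peaks. The rule left out gene bodies, which lie downstream of their own TSS, and the part of this was not tested. Annotated genes that do not code for protein held the midpoints of 6.00%, of which 719 were in long intergenic non-coding RNA genes. Retention went with distance in D12S- and D12S+, and less so in MEF. From 1 to 5 kb to 100 to 500 kb, the share overlapped by D12S- peaks went from 42.1% to 16.9% and that by D12S+ peaks from 12.1% to 2.39%, while for MEF it was 28.8% and 30.3%, and 18.7% beyond 500 kb. H3K4me3 varied little with distance, between 17.9% beyond 100 kb and 24.0% within 5 kb, whereas in the kept peaks it was 37.0% beyond 100 kb and 60.7% within 5 kb.

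**Figure D4:**
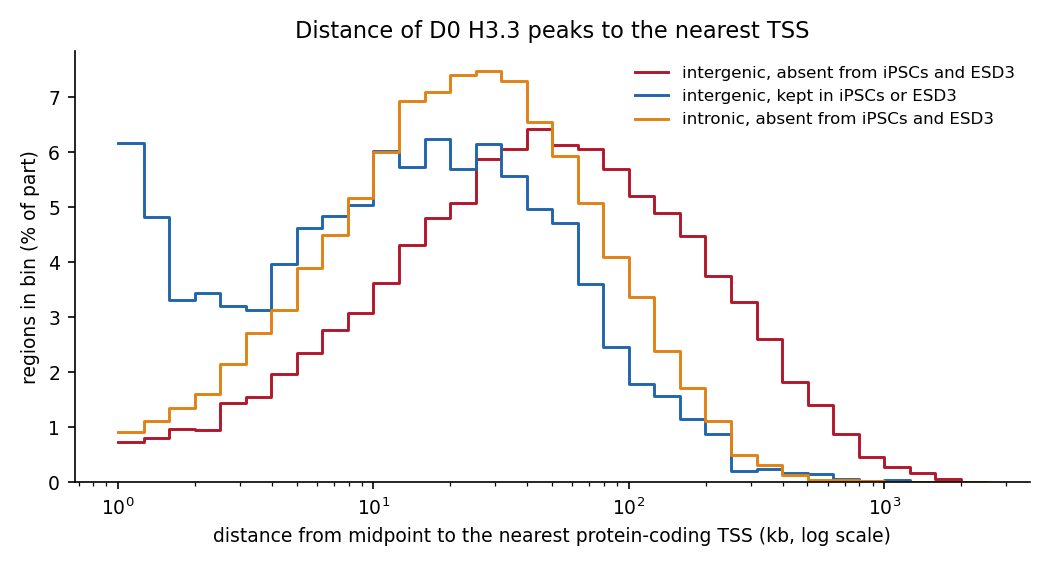
Distance from the midpoint to the nearest protein-coding TSS (x axis, kb, log scale) as the percent of each part per bin of 0.1 on the log10 scale. The regions (red) have their median at 45.2 kb, the kept intergenic peaks (blue) at 13.4 kb and the intronic absent peaks (orange) at 22.3 kb.

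AP-1 motifs were the sequence feature that stood out. TGANTCA, which reads the same on both strands, was found in the central 300 bp of 19.1% of the regions (18.5 to 19.6). It was in 13.5% of all D0 peaks, 14.6% of the kept intergenic peaks, 13.2% of the intronic absent peaks and 8.82% of 35247 windows of the same length 5 kb to either side that touched no D0 peak. The difference from these flanks was 10.2 points (9.64 to 10.9), and from the intronic absent peaks 5.90 points (5.25 to 6.56). In intergenic iPSCs peaks with no D0 peak the share was 8.93%. The excess stood on both forms of the motif, with TGAGTCA on either strand in 13.1% against 4.85% of the flanks and TGAATCA in 7.06% against 4.18%, a split that was added after the first counts were seen. Bin by bin, the motif was most frequent within 500 bp of the midpoint and back at the level of the surroundings by 1.5 kb, as the plot of the motif along the regions shows.

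**Figure D5:**
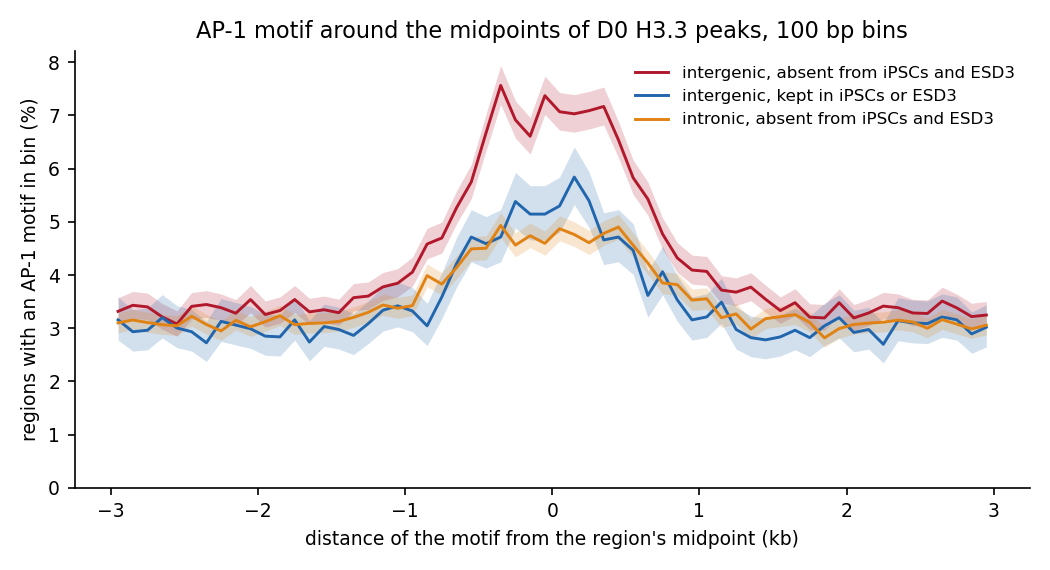
Percent of regions with an AP-1 motif in each 100 bp bin up to 3 kb from the midpoint, with 95% Wilson bands. The regions (red) reach 7.56% near the midpoint and 3.25% at the right edge, and lie above the kept intergenic (blue) and intronic absent peaks (orange) in the centre.

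Other motifs moved less between regions and flanks. The TEAD core GGAATG was in 19.4% and 15.8%, the RUNX core TGTGGT in 23.4% and 21.2%, and the C/EBP form TTGCNNAA in 14.5% and 12.9%. The octamer ATGCAAAT of Oct4 was in 1.73% of the regions, 2.30% of the flanks and 3.28% of the intergenic iPSCs peaks with no D0 peak. The SOX core CATTGTT was in 5.16% and 5.63%, the ESRRB form AAGGTCA in 5.72% and 5.73%, and the KLF form GGGTGTG in 5.76% and 5.58%. The cyclic AMP element TGACGTCA was in 0.213% and 0.184%, and the CCAAT box in 35.9% and 38.6%. All were searched on both strands. The windows had a median GC content of 45.3% and the flanks 43.3%, with 3.01 and 2.78 CpG dinucleotides on average, and windows with 10 or more CpG made up 1.85% of the regions and 6.24% of the kept peaks.

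The motif was more frequent in strong regions, at 15.3%, 14.4%, 23.1% and 26.2% from the lowest to the highest score class, and above the intronic absent peaks in each (10.3%, 10.4%, 15.4% and 19.3%). Far from genes it was in 21.2% beyond 100 kb and in 16.5% within 5 kb of a TSS. Regions with an iPSCs H3K4me3 peak differed from the rest by -9.60 points (-12.0 to -6.66) and regions with D0 H3K36me3 by -7.87 points (-9.89 to -5.53). Its relation to retention was weak and differed in sign, below 0 in each successful fraction and above 0 in the other H3.3 libraries. Regions with a MEF peak held it 2.85 points more often (1.65 to 4.07) and those with a D3 peak 2.68 points more often (1.43 to 3.96). The largest such difference was in cKit-, at 4.73 points (2.53 to 7.07). In D6T-, D9T-, D12S+ and D16S+ it was -1.23, -0.84, -2.36 and -2.82 points, each with an interval that included 0. In the unsuccessful fractions it was 2.26 points in D6T+ (1.03 to 3.5) and 1.48 in D9T+ (0.17 to 2.82). It was 0.78 points in D12S- (-0.45 to 2.03) and 1.48 in D16S- (0.042 to 2.97). In the highest score class MEF peaks overlapped 65.8% of the regions with the motif and 66.1% of those without. For D3 peaks these shares were 55.7% and 58.8%, and for D12S- peaks 43.9% and 50.5%. In each score class the MEF and D12S- shares were lower with the motif than without. So was the D3 share outside the second class, where it was 17.1% with and 17% without. These differences within classes were not tested.

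Many regions came in runs. Joining neighbours less than 12500 bp apart gave 12222 runs, of which 7993 held a single region, 1763 held 3 or more (36.1% of all regions) and the longest held 42. Regions in runs of 3 or more were overlapped by MEF peaks in 35.3% of cases (34.2 to 36.4) and by D12S- peaks in 28.7%, against 26.5% and 24.7% for the others, with median scores of 10.8 and 9.27. H3K4me3 was alike, at 20.2% and 19.6%.

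The run with the highest summed score lay at chr4:88545768-88770892, upstream of Mtap, which encodes an enzyme of methionine salvage, with the microRNA gene Mir31 inside it. Its 42 regions summed to 1302.8 tags over 225.1 kb. D6T+ peaks overlapped 27 of them and D6T- peaks 8, D9T+ peaks 14 and D9T- peaks 2, D12S- peaks 10 and D12S+ peaks 1, and D16S- peaks 4 and D16S+ peaks 0. MEF peaks overlapped 8 and D4 peaks 29. The run near Gm355 (chr2:128112733-128297894, 39 regions) was kept far more, with 25 in D3, 26 in D12S-, 18 in D16S-, 19 in MEF and 36 in D4. The run at chr2:27623681-27731121 upstream of Col5a1, a fibrillar collagen, had 10 of its 22 regions in D3 and 15 in MEF but 0 in all 4 successful fractions. A run at chr6:31043051-31113784 near AB041803 was kept in both routes, with 17 of 20 regions in D6T-, 10 in D12S+, 20 in D12S- and 4 in MEF. Downstream of Myc, inside the non-coding gene Pvt1, 18 of 24 regions had a D3 peak, 17 a D6T- peak, 2 a D12S+ peak and 17 a D12S- peak.

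The single region of highest score, 362.2 tags over 18944 bp at chr9:41393148-41412092, lay inside the non-coding gene D230004N17Rik. It had 19.1 tags per kb in D0 and 11.4 in D3, then 13 (D6T-), 9.63 (D9T-), 1.14 (D12S+) and 0 (D16S+). The unsuccessful fractions had 13.5 (D6T+), 13.8 (D9T+), 12.6 (D12S-) and 9.18 tags per kb (D16S-). MEF had 9.49 and D4 had 18.8, while cKit+ and cKit- had 0.786 and 0.348. Values are scaled tags per kb of the D0 region, counting only called peaks, so 0 means that no peak was called. The unsuccessful fractions thus stayed between 9.18 and 13.8, and D12S+ and D16S+ were nearly empty.

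The region around Mir31 (chr4:88548366-88567657, 321.4 tags) behaved differently. It had 16.7 tags per kb in D0, 3.05 in D3, 0.428 in D6T- and 0 in D9T-, and 10.8 in D6T+ and 6.55 in D9T+. By day 12 the unsuccessful cells had 0.351, and MEF had 0.533 although D4 had 12.8. The region near Gsn, which encodes the actin-severing protein gelsolin (chr2:35157787-35171057, 232.4 tags), had 17.5 in D0, 9.11 in D3, 5.54 (D6T-) and 0.71 (D9T-) on the successful route, 10.7 in D12S- cells, 0.791 in MEF and 16.0 in D4. Both were low in MEF and high in D4. Near Itpripl2 (chr7:125618406-125629297) the level was 18.3 in D0 and 10.1 in MEF, but between 2.13 and 6.08 in D3 and the fractions of days 6 and 9. Upstream of Il1r2, a decoy receptor for interleukin-1, it was 15.3 in D0, 7.50 in D3, 2.58 in D12S+ and 7.20 in D12S-. These regions and the one inside D230004N17Rik were not typical. Each was overlapped by a D0 H3K36me3 peak, as were 4.37% of all regions. Each was also longer than 10 kb, as were 7 of the 20229.

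In the group with a peak in MEF and all unsuccessful fractions but in none of the successful ones, 108 regions qualified and the strongest lay near Rxra, Foxs1, Ccdc93, St3gal1 and Glrp1. All 5 had D0 H3K4me3, as did 53.7% of the 108. Of the peaks with this pattern, 50% of the intronic absent and 75% of the kept intergenic ones had it. Near St3gal1, which encodes a sialyltransferase, the tags per kb were 14.9 in D0, 13.9 in D6T+ cells, 10.7 on day 9, 3.97 on day 12 and 2.86 on day 16 of the same route. Near Foxs1, a forkhead factor, they were 18.6 in D0, 8.71 on day 6, 2.69 on day 9, 1.09 on day 12 and 1.25 on day 16. Near Rxra, a nuclear receptor, they were 18.4, 6.46, 1.61, 1.23 and 1.00. Their retention in the unsuccessful fractions was thus a presence of peaks at levels that differed several-fold and were lower on days 12 and 16 than on day 6.

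Among the 60 regions with a peak in all 9 reprogramming libraries, 3 of the 5 strongest lay near Pdia4 and Ezh2 on chromosome 6. They were very dense, with 89.5 to 112.3 tags per kb in D0 against a median of 13.6, and weakly enriched, with folds over input of 2.06 to 2.35. Over 50 tags per kb were 6 regions, 5 of them between chr6:47602271 and 47715983, with a median of 99.7 input tags per kb against 9.00 over all regions. None of the 5 had a MEF peak. Their part in the count of regions kept throughout was not tested, and they are 5 of 20229. The other 2 strongest were near AB041803, with 17.9 tags per kb in D0, 2.49 in D12S+, 1.18 in D16S+ and 16.9 in D16S-, and near Amotl2, a scaffold protein of the Hippo pathway, with 17.5, 1.68, 1.42 and 7.58.

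Assigned to the gene of the nearest TSS, the regions fell on 6721 of 22225 protein-coding genes, 30.2%, with 0.91 regions per gene. Of the fibroblast matrix and contractile genes 33 of 41 annotated had at least 1 (275 regions, 6.71 per gene), of the mesenchymal transcription factors 29 of 33 (189, 5.73 per gene), and of the TGF-beta ligands, receptors and Smads 26 of 32 (161, 5.03 per gene). Of the AP-1 factor genes 10 of 18 had at least 1 (55 regions), of hematopoietic genes 11 of 23 (53), of housekeeping genes 11 of 29 (17), of epithelial genes 10 of 30 (22) and of pluripotency genes 11 of 34 (121). The lists are hand-picked, genes with wide flanks collect more regions whatever their function, and the part of flank width was not tested. Of the intergenic D0 peaks near fibroblast matrix genes 92.3% were absent from iPSCs and ESD3, near mesenchymal factors 91.7%, near epithelial genes 48.9% and near housekeeping genes 37.0%, against 73.8% over all genes. The share was 93.0% near hematopoietic genes, 83.0% near the TGF-beta list, 76.4% near AP-1 genes and 72.9% near pluripotency genes. A high share was thus not particular to fibroblast genes.

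Near the matrix genes, MEF peaks overlapped 49.1% of the 275 regions and D12S+ peaks 1.82%, against 29.7% and 5.37% over all regions, whereas D12S- peaks overlapped 20.7%, against 26.1% over all. These shares were not tested, the D0 scores were not matched, and a few genes weigh heavily, such as Tpm1 with 15 of 20 regions in MEF and Col5a1 with 14 of 18. Thbs1, an adhesive matrix glycoprotein, had 34 regions up to 378.3 kb away, with 31 in D4, 13 in MEF, 9 in D6T+ and 1 in D6T-. Tnc, another matrix glycoprotein, had 31, with 22 in D4, 8 in MEF and 0 in D12S+. The strongest near Col1a1, the main chain of type I collagen (chr11:94730691-94736811), had 17.0 tags per kb in D0, 4.15 in D3, 15.9 in MEF and 21.1 in D4, and 0 in the 4 successful fractions. The unsuccessful fractions were low there too, at 2.55 (D6T+), 2.15 (D9T+), 0 (D12S-) and 1.28 (D16S-). Col3a1, type III collagen, had 19.4 in D0, 17.1 in D6T+, 1.22 in D6T- and 3.29 in MEF. Near Ctgf, a matricellular factor, the strongest had 16.8 in D0, 6.81 in D6T+, 0 in D6T- and 0 in MEF.

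Regions of the mesenchymal factors were overlapped by D3 peaks in 19.6% and by MEF peaks in 31.7% of cases. Snai1, an inducer of the mesenchymal state, had the strongest (chr2:167393822-167402416), with 15.1 tags per kb in D0, 11.2 in MEF, 5.89 in D6T-, 1.38 in D12S+ and 6.85 in D12S-. Zeb2, which represses epithelial genes, had 18 regions, 8 of them in D12S- and 0 in D12S+. The strongest upstream of Twist2 had no peak in D3 or MEF. In the TGF-beta list, Inhba, a subunit of activin, had 30 regions with 10 in D6T+, 10 in MEF and 0 in D12S+, and the receptor gene Tgfbr2 had 17 with 11 in D12S- and 3 in MEF. Grem1, an antagonist of BMP ligands, had a region with 17.1 tags per kb in D0 and 0 in MEF.

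Near the AP-1 genes the order of MEF and D12S- was the opposite, with 43.6% of the 55 regions in D12S-, 9.09% in D12S+, 18.2% in MEF and 32.7% with D0 H3K4me3. Jun alone had 15. The one closest to its start (chr4:94712551-94716688, 4.24 kb downstream) had 14.5 tags per kb in D0, 13 in D6T-, 14.9 in D6T+, 12.9 in D12S-, 2.04 in D12S+ and 2.19 in D16S+, with H3K4me3 in all 7 libraries of the route. Fos had 9, of which 6 carried D0 H3K4me3. In the pluripotency list 53 of 121 regions belonged to Myc and 24 to Klf4, both of which were also delivered as retroviral factors. Of the 53, D3 peaks overlapped 31, D6T- peaks 22, D12S+ peaks 4 and D12S- peaks 27. Among epithelial genes the strongest, upstream of Krt8, a keratin of simple epithelia, had 14.1 tags per kb in D0, 0 in D3, 14.3 in D6T-, 13.2 in D12S- and 0 in D16S+. Runx1, a blood factor and part of SLBR, had 17 regions, with 8 in MEF, 11 in D4 and 0 in cKit+, and near Kit itself the strongest had a D0 value of 15.3 and 0 in D4.

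At the far end, the 3 regions most distant from any TSS were 500 bp long, 2076.6 kb from Pik3c3 and 1972.1 and 1842.5 kb from Pcdh9, with D0 scores of 6.49, 7.05 and 7.05. The one 1972.1 kb away had peaks in D6T-, D12S- and D4, and the other 2 had none in any other library. In all, 3650 regions (17.5 to 18.6% by the Wilson interval) had no peak in the 13 other H3.3 libraries followed, with a median score of 7.05 and D0 H3K4me3 at 8.30%, and 17.5% were seen again in D4 only. The same shares were 14.6% and 13.8% of the intronic absent peaks, and 2.84% and 3.39% of the kept intergenic ones.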

How the data were processed

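ChIP-Seq peak lists of 30 libraries (16 of H3.3, 7 each of H3K4me3 and H3K36me3) were used, with 1 library per group among 46 samples. The 16 input libraries entered only through the input tags listed with each peak. Per the file headers and the study's methods, the authors aligned reads with STAR to mm9, removed multi-mapping reads and called peaks in each library separately with HOMER against an input (histone style, smallest peak 500 bp, regions joined within 1000 bp, Poisson p limit 1e-04 over input). Versions are not given in the sources used here. The deposited signal is the tag count of a peak scaled by the authors to 10 M tags, not divided by length and with no input subtracted. The deposited ratio is the fold over scaled input tags, with at least 2 required for H3.3 and 4 for the other marks. Lists hold called peaks only, so the absence of a peak is not a measured 0.

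From these, D0 peaks on chromosomes 1 to 19, X and Y were annotated with GENCODE vM1 (NCBIM37, the same assembly as mm9), and 113 on unplaced contigs were left out. Overlap needed 1 bp. Tags per kb in another library are the tags of its overlapping peaks, prorated by overlap and divided by the D0 peak's length. Shares carry 95% Wilson intervals and differences Newcombe intervals, for counting error only. The route contrast was tested by an exact two-sided permutation of signs over 4 days. Motifs were counted in 300 bp windows. Python 3.11.15, numpy 2.4.6, pandas 2.3.3 and matplotlib 3.10.9 were used, and the routines were tested on simulated data.

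The regions, gene lists and motifs were chosen with earlier results of these data known. Regions were named by fixed rules: the 10 of highest score, the 10 runs of highest summed score, the 5 of highest score in MEF and all unsuccessful but no successful fractions, in all 9 reprogramming libraries and with D0 H3K4me3, the 3 of highest score per gene list, and the 3 farthest from a TSS. A few of each are described. Alternatives were equal numbers of top peaks, a fold of 4, an overlap of 0.5, genes extended by 10 kb, no iPSCs or ESD3 peak within 1 kb, and autosomes only. Restriction to regions with a MEF peak was added after seeing the data.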

Additional observations from a re-analysis of the deposited data

How the results depend on the processing

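The mean route difference kept its direction under every alternative run, between 7.38 points (overlap of 0.5) and 21.1 points (regions with a MEF peak only, an alternative chosen after seeing the data), against 12.0 points. Other values depended on how peaks were chosen, and the cause was not tested. With the 25637 top-scoring peaks of each library (5366 regions) the MEF share was 49.3%, the D3 share 29.8%, the D0 H3K4me3 share 42.8%, the median TSS distance 37.3 kb and the AP-1 share 25.1%. With a fold of at least 4 (12692 regions) they were 0.812%, 20.3%, 28.2%, 35.0 kb and 17.9%. With an overlap of 0.5 of the D0 peak the first 4 were 17.97%, 14.6%, 10.6% and 40.2 kb. With genes extended by 10 kb all 5 were 30.9%, 23.5%, 20.9%, 73.4 kb and 20.6%. With no iPSCs or ESD3 peak within 1 kb the D3 share was 25.4% and the distance 50.4 kb. Among regions with a MEF peak only, the D3 share was 42.5%, the H3K4me3 share 35.7%, the distance 46.5 kb and the AP-1 share 21.1%. The order of the regions and the intronic absent peaks in MEF, D3 and D0 H3K4me3 was the same with autosomes only and under each setting above other than the restriction to regions with a MEF peak, except for MEF at a fold of 4, where it turned. No paired analysis was possible because each group has 1 library and so no replicate numbers to pair by, while the route contrast itself pairs fractions by day. Lists of called peaks from libraries of unequal depth and enrichment cannot show whether a missing peak is a lower level or a missed call.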
